A study of Mus musculus with 24 samples.

Results

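The 7 genes described here encode the core of MHC class II antigen presentation: the class II chains H2-Aa, H2-Ab1 and H2-Eb1, the invariant chain Cd74, the peptide exchange factor chains H2-DMa and H2-DMb1, and the class II transactivator Ciita. They were taken by symbol from the 56205 genes of a count table of mouse liver RNA, in which each of the 7 symbols had 1 gene identifier, and all 7 passed the filter of 1 or more counts in 12 or more libraries, as did 17913 genes in all, which were then tested. Whole livers of C57BL/6J mice were sequenced as polyA RNA in 24 libraries. Of these, 12 belonged to the high fat diet (FFD) and 12 to the control chow diet. Both diets lasted 20 weeks, and the study's methods give an age of 8 to 10 weeks at the start of feeding. The design has 6 mice per diet and sex, the labels name no transgene or engineered allele, and they give neither the sex behind a library nor whether a library is 1 liver.

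Class II molecules are heterodimers of an alpha and a beta chain that display peptides from the endocytic pathway to CD4 T cells. They are abundant on dendritic cells, B cells and activated macrophages, and in the liver also on Kupffer cells and recruited myeloid cells, while hepatocytes normally carry little. Cd74 fills the peptide groove during transport, lysosomal proteases such as Ctss trim it, and the H2-DM heterodimer then exchanges the last fragment for antigenic peptide. Ciita does not bind DNA itself but docks on a complex of RFX, CREB and NF-Y factors assembled on the X and Y boxes of class II promoters. Mice of the C57BL/6 background do not express the alpha chain partner of H2-Eb1, and H2-Ea-ps, the name of that gene in the annotation, had 0 counts in all 24 libraries, which allows up to 0.118 to 0.305 CPM (3 counts) per library.

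The libraries held 14468418 to 22112552 counts on genes. They fell into 2 sets by Xist, the RNA of the inactive X chromosome: 12 libraries had 2664 to 6285 Xist counts and 0 counts of the Y-linked Ddx3y, and 12 had 0 to 3 Xist counts and 448 to 1016 Ddx3y counts. Each set held 6 FFD and 6 control libraries, replicates 1 to 6 and 7 to 12 of each diet, so both diets could be compared within a set. The first pattern is that of female and the second that of male mice, and the sizes match the 6 mice per diet and sex of the design. The sets are named by Xist here because the labels give no sex. Control replicate 10 stood apart with the lowest depth and the lowest TMM scaling factor, 0.679, and control replicate 6 had the highest level of all 7 class II genes among the control libraries. The class II results are therefore also given without these libraries. As whole liver was sequenced, a change in the number of class II positive cells and a change in class II RNA per cell cannot be told apart.

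All 7 class II genes rose on the FFD, by 3.69 to 4.67-fold, against a background of 13.2% of all tested genes called higher (2372 genes, with 894 or 4.99% called lower). A gene was called when its log2 fold change exceeded 0.5 in size and its p, adjusted by Benjamini-Hochberg over all tested genes, was 0.01 or less in the quasi-likelihood test of edgeR. The median log2 fold change was 2.05 over the 7 genes and -0.03 over all tested genes. With library totals in place of TMM scaling, the 7 genes were again called higher, the median of all genes moved to 0.26, and 3827 genes were called higher and 226 lower. Levels below are in CPM, the count relative to the TMM-scaled total of the library, and compare a gene with itself.

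The chains of the class II molecules are encoded side by side on chromosome 17 (GRCm38, GENCODE M21 models): H2-Ab1 at chr17:34257689-34269419 on the plus strand, H2-Aa at chr17:34282744-34287823 on the minus strand and H2-Eb1 at chr17:34305867-34316674 on the plus strand. H2-Aa, the alpha chain of the I-A molecule, had a lowest, median and highest level of 19.2, 32.8 and 107 CPM in the control libraries and of 79.9, 190 and 305 CPM in the FFD libraries. The diets overlapped in 1 control library, replicate 6, which lay above the lowest FFD libraries, and 10 of 12 FFD libraries lay above every control library. The mean rose from 40.9 ± 25.4 CPM to 190 ± 73.9 CPM (SD, n = 12 each), a log2 fold change of 2.21 with a standard error of 0.28 and an edgeR adjusted p of 2.13e-06. H2-Ab1, the beta chain that pairs with H2-Aa, ranged from 20.5 through a median of 35.2 to 116 CPM on the control diet and from 86.7 through 191 to 324 CPM on the FFD. Control replicate 6 was again the only control library within the FFD range, and 11 FFD libraries lay above it. The log2 fold change was 2.05 (SE 0.27, edgeR adjusted p = 3.64e-06). H2-Eb1, the beta chain of the I-E molecule, ranged from 21.7 through 29.2 to 115 CPM and from 86.8 through 191 to 344 CPM. It showed the same single overlapping control library and the largest of the 7 log2 fold changes, 2.22 (SE 0.28, edgeR adjusted p = 2.04e-06), while its partner chain had no counts.

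Promoter sequences of RefSeq (GRCm38.p6) were at hand for H2-Aa, H2-Eb1, H2-DMa and H2-DMb1 among the 7 genes, each window running from 250 bases before to 50 bases after the start. This start is that of RefSeq, and for H2-Aa and H2-Eb1 it matches the GENCODE model. For H2-DMa and H2-DMb1 it lies inside the GENCODE model. The H2-DMb1 model begins at chr17:34153072, so most of its printed stretch, with TGATTGG, lies downstream of the GENCODE start. The X box core was searched as AGCAAC, the Y box core as ATTGG and, chosen after the sequences had been read, as TGATTGG, a longer form that contains ATTGG, all on both strands. The 150 bases before the start of the 3 genes with TGATTGG are shown because the Ciita-dependent complex is known to assemble on X and Y boxes of class II promoters. Of these 3 genes, only H2-Eb1 also had AGCAAC in its window. Capitals mark AGCAAC and TGATTGG.
H2-Aa (chr17:34287824-34287973, minus strand): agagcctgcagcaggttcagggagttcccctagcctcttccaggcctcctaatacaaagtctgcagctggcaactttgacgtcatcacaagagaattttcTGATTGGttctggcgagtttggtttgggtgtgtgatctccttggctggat
H2-Eb1 (chr17:34305717-34305866, plus strand): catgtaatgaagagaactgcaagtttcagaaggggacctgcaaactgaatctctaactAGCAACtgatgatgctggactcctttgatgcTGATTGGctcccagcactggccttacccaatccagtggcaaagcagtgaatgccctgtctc
H2-DMb1 (chr17:34153041-34153190, plus strand): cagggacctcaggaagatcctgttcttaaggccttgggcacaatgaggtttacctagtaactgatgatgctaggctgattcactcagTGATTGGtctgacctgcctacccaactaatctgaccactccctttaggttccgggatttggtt

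TGATTGG lay on the gene's own strand in all 3 stretches, ending 44 bases before the start of H2-Aa, 55 bases before that of H2-Eb1 and 57 bases before that of H2-DMb1. Of 32851 RefSeq promoter windows of 300 bases, 7.82% held TGATTGG on either strand, 37.4% held ATTGG and 14.8% held AGCAAC. The pair of AGCAAC followed after 10 to 30 bases by ATTGG was found in 0.359% of the windows and, among the members, in H2-Eb1, with 27 bases between the motifs. The same pair was present at the class II genes H2-Oa, H2-Ob and H2-Eb2. Neither of the 2 windows of H2-DMa held AGCAAC or TGATTGG, and ATTGG was present in 1 of them. These are letter matches and were not measured as binding.

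Cd74, on chromosome 18, encodes the invariant chain that chaperones the class II dimers. Its lowest, median and highest levels were 63.7, 105 and 320 CPM in the control libraries and 247, 504 and 925 CPM in the FFD libraries. Control replicate 6 lay within the FFD range and the other 11 control libraries lay below it. The mean rose from 128 ± 76.0 CPM to 529 ± 209 CPM (SD, n = 12 each), with a log2 fold change of 2.05 (SE 0.27, edgeR adjusted p = 3.21e-06).

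H2-DMa (chr17:34119541-34139101) and H2-DMb1 (chr17:34153072-34160230), both on the plus strand, encode the chains of the H2-DM peptide exchange factor. H2-DMa ranged from 1.64 through 4.72 to 11.9 CPM on the control diet and from 11.5 through 19.4 to 29.6 CPM on the FFD. H2-DMb1 ranged from 2.43 through 4.81 to 14.0 CPM and from 11.2 through 22.7 to 33.7 CPM. For both chains 11 FFD libraries lay above every control library, and control replicate 6 was the only control library within the FFD range. Both rose, with log2 fold changes of 1.88 for H2-DMa (SE 0.24, edgeR adjusted p = 1.98e-06) and 1.98 for H2-DMb1 (SE 0.25, edgeR adjusted p = 1.70e-06). The H2-DMa model shares 360 exonic bases with Brd2 on the opposite strand, and the strand setting of the counting is not given in the sources used here. Of the 1628 distinct 51-base stretches in H2-DMb1 transcripts, 22.3% also occur in transcripts of its neighbour H2-DMb2, so the split of reads between them is uncertain.

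Ciita (chr16:10480059-10528418, plus strand) encodes the coactivator that sets class II transcription in most cell types. It was the least abundant of the 7 genes, with 0 to 102 counts per control library and 100 to 243 counts per FFD library. Its lowest, median and highest levels were 0, 1.80 and 4.71 CPM on the control diet and 5.01, 7.70 and 10.6 CPM on the FFD. Ciita was the only one of the 7 genes with no overlap between the diets, which held for 1.48% of all tested genes in the same direction and for 0.402% in the opposite one. The 0 was control replicate 10, where 3 counts equal 0.305 CPM. The log2 fold change was 1.95 (SE 0.30, edgeR adjusted p = 2.16e-05), and 1.84 without control replicate 10. Of the 9498 distinct 51-base stretches in Ciita transcripts, 1.42% also occur, on the opposite strand, in those of Dexi.

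Control replicate 6 was set aside because it was the highest control library for all 7 genes. Without it, all 12 FFD libraries lay above the remaining control libraries for each of the 7 genes. This separation follows from that choice: replicate 6 was the only overlapping control library for every gene but Ciita, which had no overlap before. It is therefore no further evidence of a diet difference, and its share over all tested genes was not computed. The highest remaining control library had 64.2 CPM of H2-Aa, 83.6 CPM of H2-Ab1, 71.0 CPM of H2-Eb1 and 223 CPM of Cd74. In a fit without control replicates 6 and 10, chosen after seeing the data, the 7 log2 fold changes ranged from 2.03 to 2.43 and all were called higher. A two-sided permutation test of mean log2(CPM + 1), pseudocount 1, gave p = 1e-05 for each gene with 12 libraries per diet, the smallest value that 100000 resamples can give.

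**Figure D1:**
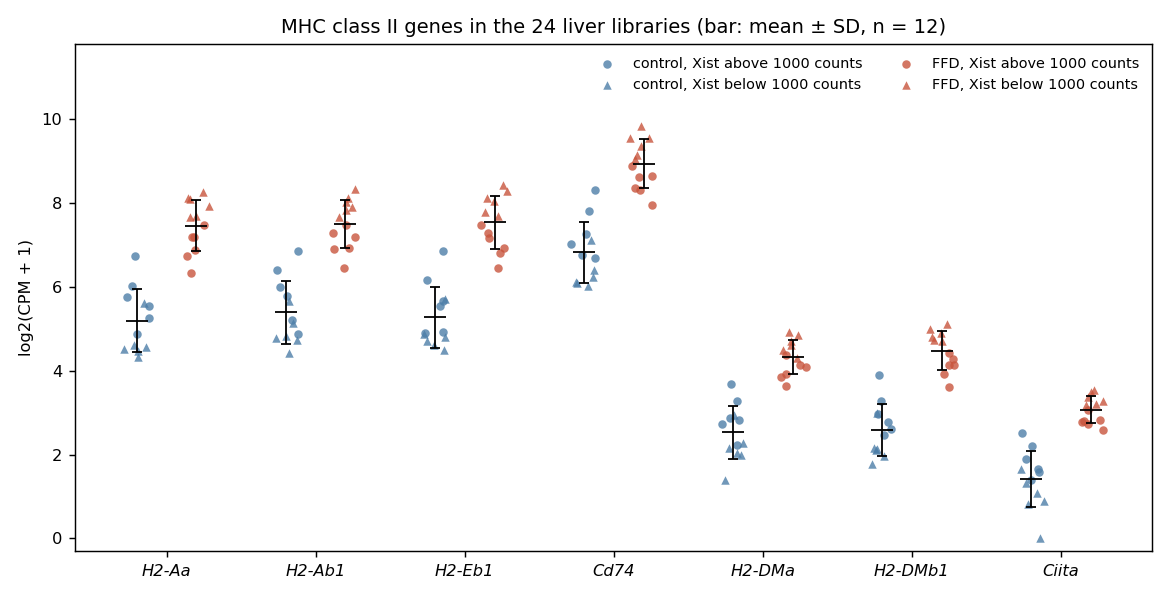
Level of the 7 class II genes in each library, as log2(CPM + 1) on the vertical axis, in blue for the 12 control and in red for the 12 FFD libraries. Circles are libraries with Xist above 1000 counts and triangles those below, and bars give the mean and SD of each diet (n = 12). The highest blue point of each gene is control replicate 6, and the lowest Ciita point, at 0, is control replicate 10.

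Between genes, levels were compared as CPM per kilobase of merged exons. On the control diet Cd74 was highest at 76.0 ± 45.3 (SD, n = 12), followed by H2-Eb1 at 22.2 ± 14.0, H2-Ab1 at 18.3 ± 11.1 and H2-Aa at 10.8 ± 6.69. H2-DMb1 followed at 3.34 ± 1.94, H2-DMa at 1.55 ± 0.832 and Ciita at 0.202 ± 0.136. On the FFD the values were 315 ± 124 for Cd74, 104 ± 42.9 for H2-Eb1, 75.8 ± 28.4 for H2-Ab1, 50 ± 19.5 for H2-Aa, 13.3 ± 4.24 for H2-DMb1, 5.75 ± 1.67 for H2-DMa and 0.797 ± 0.199 for Ciita. The same order held within each of the 24 libraries, while the ranges of neighbouring genes over libraries overlapped on both diets except, on the FFD, between H2-Aa and H2-DMb1 and between H2-DMa and Ciita. The merged H2-Aa model is long, 3798 bases against 2568 for H2-Ab1, which lowers its value per kilobase.

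Ratios within a library tested whether the proportions among the class II genes changed with the diet. The median ratio of Cd74 to H2-Ab1 counts was 2.77 on the control diet and 2.7 on the FFD, and the mean log2 ratio was 1.46 ± 0.24 and 1.44 ± 0.06 (SD, n = 12 each, permutation test, adjusted p = 0.812 over 6 ratios). H2-DMb1 stood at a median of 0.118 and 0.116 of the H2-Ab1 counts, H2-DMa at 0.111 and 0.102 and Ciita at 0.0439 and 0.0396, with adjusted permutation p-values of 0.812, 0.661 and 0.812. The mean log2 ratios of H2-DMa and Ciita differed between the diets by -0.13 and 0.28, and the latter was -0.13 without control replicate 10. H2-Aa and H2-Eb1 gained slightly on H2-Ab1, by 0.16 and 0.15 on the log2 scale (permutation test, adjusted p = 0.0492 for both), and this passed 0.05 only narrowly: the adjusted p was above 0.05 when any 1 of 17 libraries was left out for H2-Aa, and likewise for H2-Eb1. The spread of the Cd74 to H2-Ab1 ratio was 1.98 to 3.61 over control libraries and 2.51 to 2.89 over FFD libraries. Cd74 and H2-Ab1 counts thus kept closer to a fixed proportion over the FFD libraries than over the control libraries.

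**Figure D2:**
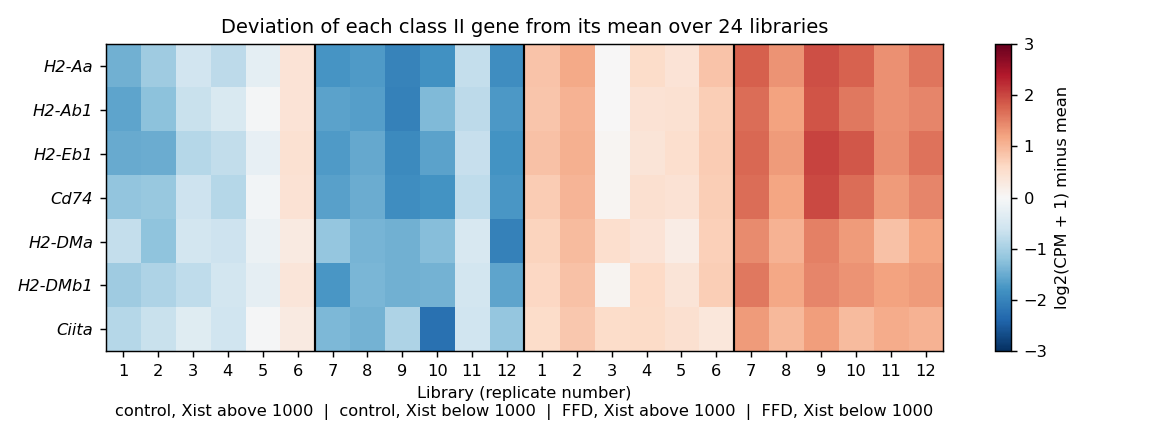
Heat map of the 7 class II genes (rows) in the 24 libraries (columns, by replicate number), coloured by log2(CPM + 1) minus the gene's mean over all libraries, blue for below and red for above. Vertical lines separate, from left to right, control libraries with Xist above and below 1000 counts and FFD libraries with Xist above and below 1000 counts. The 7 rows change together from library to library, with control replicate 6 slightly above the mean and FFD replicate 3 near it.

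The diet difference was unequal between the Xist sets. Above 1000 Xist counts the 7 genes had log2 fold changes of 1.07 to 1.23, and below 1000 counts of 2.76 to 3.29. H2-Aa rose by 1.21 (SE 0.27) in the first set and by 3.29 (SE 0.22) in the second, and Cd74 differed by 1.07 (SE 0.25) and rose by 3.09 (SE 0.21). In the set above 1000 counts 4 of the 7 genes were called higher in the edgeR fit, against 2.9% of all tested genes, and H2-Ab1 (adjusted p = 0.0173), H2-Eb1 (0.0121) and Cd74 (0.0121) were not. In the set below 1000 counts all 7 were called higher, against 14.4% of all tested genes. The interaction of diet and Xist set was tested in 1 edgeR fit over all 24 libraries and was past an adjusted p of 0.01 for each of the 7 genes, which held for 4.06% of all tested genes. The difference between the sets, Xist above minus below, was -2.07 for H2-Aa (SE 0.36, adjusted p = 0.000749), -2.01 for Cd74 (SE 0.34, adjusted p = 0.000607) and -1.95 for Ciita (SE 0.43, adjusted p = 0.00467). It was smallest for H2-DMa, at -1.62 (SE 0.34, adjusted p = 0.00353). Without control replicate 6, 7 or 8 the adjusted p for Ciita was 0.0121, 0.0107 and 0.0104, with differences of -1.73, -1.88 and -1.86.

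The sets stood in opposite order on the 2 diets. On the control diet the libraries above 1000 Xist counts had the higher levels: H2-Aa ran from 28.5 through a median of 49.4 to 107 CPM there and from 19.2 through 22.2 to 47.7 CPM in the set below. On the FFD the same gene ran from 79.9 through 130 to 177 CPM in the set above and from 202 through 259 to 305 CPM in the set below, with no overlap. Cd74 had medians of 141 and 71.9 CPM on the control diet and of 359 and 703 CPM on the FFD, in the same order of sets. The fitted log2 difference between the sets, above minus below, ranged from 0.94 for H2-Eb1 to 1.32 for Ciita on the control diet, with 5 of the 7 genes at an edgeR adjusted p of at most 0.01, against 6.31% of all tested genes in either direction. H2-Eb1 (adjusted p = 0.0251) and H2-DMa (0.0136) were above it. On the FFD the difference ranged from -1.03 for H2-Eb1 to -0.62 for Ciita, and only Cd74 passed 0.01 (adjusted p = 0.00819), the other 6 having adjusted p-values from 0.0103 to 0.134, against 7.24% of all tested genes past 0.01 in either direction. Within the set below 1000 counts the diets did not overlap for any of the 7 genes, as for 12.6% of all tested genes. Within the set above, the diets did not overlap for Ciita alone, as for 3.51% of all tested genes.

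The pan-leukocyte markers Ptprc, Laptm5, Coro1a, Cd52 and Tyrobp moved with the sets as well. Their summed level had medians of 75 CPM above and 34.7 CPM below 1000 Xist counts on the control diet and of 137 and 199 CPM on the FFD, and the interaction was past an adjusted p of 0.01 in edgeR for all 5. Their part in the class II result was not tested.

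**Figure D3:**
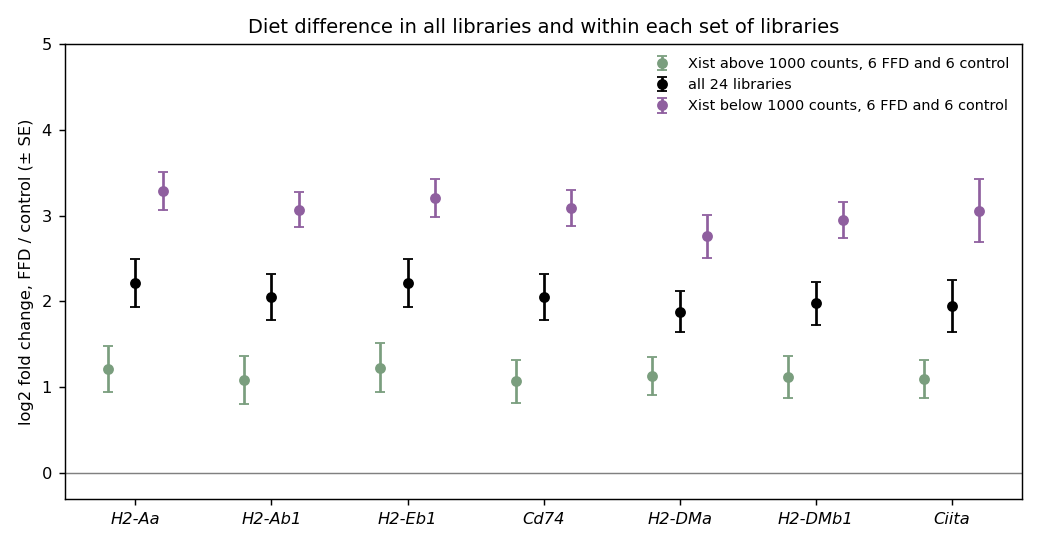
Log2 fold change between FFD and control with its standard error for the 7 class II genes, from the edgeR fit over all 24 libraries (black), over the 12 libraries with Xist above 1000 counts (green) and over the 12 below (purple). The green points lie between 1.07 and 1.23, the purple points between 2.76 and 3.29 and the black points between them.

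Ciita was then compared with the genes it is known to drive, across the 12 libraries of a diet. On the control diet Pearson's r between Ciita and the other 6 genes, on log2(CPM + 1), ranged from 0.74 for H2-Ab1 (permutation test, adjusted p = 0.00483 over 12 correlations) to 0.87 for Cd74 (adjusted p = 0.00101). Spearman's rho ranged from 0.81 to 0.90 (permutation test, adjusted p = 0.00185 to 0.00266). Without the 2 libraries farthest from the Ciita median, r ranged from 0.78 to 0.91. With the mean of each Xist set subtracted, r ranged from 0.53 to 0.74 and the adjusted permutation p from 0.0544 to 0.173, so the relation no longer passed 0.05. Within the 6 control libraries above 1000 Xist counts, which include replicate 6, r ranged from 0.88 for H2-DMa (exact permutation test, adjusted p = 0.0611 over 24 within-set correlations) to 0.99 for Cd74 (adjusted p = 0.0167). Within the 6 below it ranged from 0.11 to 0.55 (exact permutation test, adjusted p = 0.521 to 0.829). On the FFD the Xist sets formed separate clusters for 5 of the 6 genes, and r was therefore taken within each set of 6 libraries. It ranged from 0.29 to 0.46 above and from 0.38 to 0.73 below 1000 Xist counts, with exact permutation p-values of 0.111 to 0.576 (adjusted 0.381 to 0.601). All these genes share the depth and scaling of their library.

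Among the other class II genes of the region, which had lower levels, 3 of the 4 tested rose. H2-DMb2, the neighbour and close copy of H2-DMb1, rose from 0.785 ± 0.464 to 1.58 ± 0.705 CPM (SD, n = 12 each), a log2 fold change of 1.0 (SE 0.29, edgeR adjusted p = 0.00887). H2-Oa, a chain of the H2-DO inhibitor of H2-DM, rose by 1.31 (SE 0.37, edgeR adjusted p = 0.00710) on the log2 scale. H2-Eb2 rose from 0.0654 to 0.386 mean CPM and had 0 counts in 6 control libraries. H2-Ob, the other H2-DO chain, had a log2 fold change of 0.58 (edgeR adjusted p = 0.0513), and was called with library totals (0.86, adjusted p = 0.00958). The median of the 4 was 1.15. Above 1000 Xist counts edgeR called 0 of the 4 (median 0.38), and below it 3 (median 2.14). Of all tested genes, 2.9% and 14.4% were called higher in these sets.

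The proteases and reductase that prepare antigen and trim the invariant chain differed among themselves, with 4 of 8 called higher and a median log2 fold change of 0.50. Above 1000 Xist counts edgeR called 2 of the 8 higher, and below it 5 higher and 1 lower. Ctss, the cathepsin S that cleaves the invariant chain in antigen-presenting cells, rose from 36.7 ± 18 to 118 ± 33.9 CPM (SD, n = 12 each), by 1.69 on the log2 scale (SE 0.22, edgeR adjusted p = 3.27e-06). Lgmn, the asparaginyl endopeptidase, and Ifi30, the lysosomal thiol reductase, rose by 1.25 and 1.26 (edgeR adjusted p = 1.41e-06 and 1e-05), and Ctsb by 0.54 (adjusted p = 7.26e-05). Ctsd had a log2 fold change of 0.46, below the fold threshold, Ctsz of 0.19, Ctsl of -0.13 and Sppl2a of -0.27. Ctsl was at 574 ± 87.2 CPM on the control diet and 524 ± 66.7 CPM on the FFD.

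Of the 7 DNA-binding factors of the class II promoter (Rfx5, Rfxap, Rfxank, Nfya, Nfyb, Nfyc and Creb1), 0 were called by edgeR, by DESeq2 or by limma-voom, and 2 had an unadjusted p under 0.05 with each tool. Their median log2 fold change was -0.11 and 0.18 with library totals, so its sign depends on the scaling. Rfx5 was at 10.5 ± 2.93 and 11.9 ± 2.19 CPM (SD, n = 12 each). Nfya had a log2 fold change of 0.43 (edgeR adjusted p = 0.000392), under the fold threshold, and was called with library totals, and Rfxap of -0.28 (adjusted p = 0.0128).

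On the route from interferon-gamma to Ciita, 4 of 8 tested genes were called higher, with a median of 0.52. Above 1000 Xist counts edgeR called 1 of the 8, and below it 5. Ifngr1 had a log2 fold change of 0.12 above (edgeR adjusted p = 0.531) and 1.27 below. The receptor chains Ifngr1 and Ifngr2 rose by 0.66 and 0.71 on the log2 scale (edgeR adjusted p = 0.000440 and 1.28e-05), Irf8, a myeloid transcription factor, by 1.23 (1.26e-05), and Socs1, a feedback inhibitor of the pathway, by 1.07 (0.00209). Irf1, a factor that acts on the inducible Ciita promoter, had a log2 fold change of 0.33 (edgeR adjusted p = 0.00683), short of the fold threshold, and was called with library totals. Jak1 and Jak2 were at -0.13 and 0.03. Ifng had 0 counts in 7 FFD and 7 control libraries and was not tested.

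Cd83, which keeps class II on the surface by opposing the ubiquitin ligase March1, rose by 1.66 (SE 0.28, edgeR adjusted p = 5.46e-05) and was the only gene called among 6 of class II turnover and sorting in that fit. DESeq2 and limma-voom called 2 of the 6 each, and library totals gave 4. Above 1000 Xist counts edgeR called 0 of the 6, and below it 3. March1, listed as Marchf1, had a log2 fold change of 0.78 (adjusted p = 0.0244). Among 8 genes of costimulation and class II recognition 3 were called higher, Cd40 by 1.49 (edgeR adjusted p = 0.00102), Icosl by 1.29 (0.000410) and Cd86 by 1.08 (0.000477). In the set above 1000 Xist counts 0 of these 8 were called (median 0.54), and in the set below 3 (median 1.92). The class II receptors on T cells gave -0.92 for Cd4 (adjusted p = 0.103) and -0.17 for Lag3 (0.746), at mean levels of at most 1.49 CPM on either diet.

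**Figure D4:**
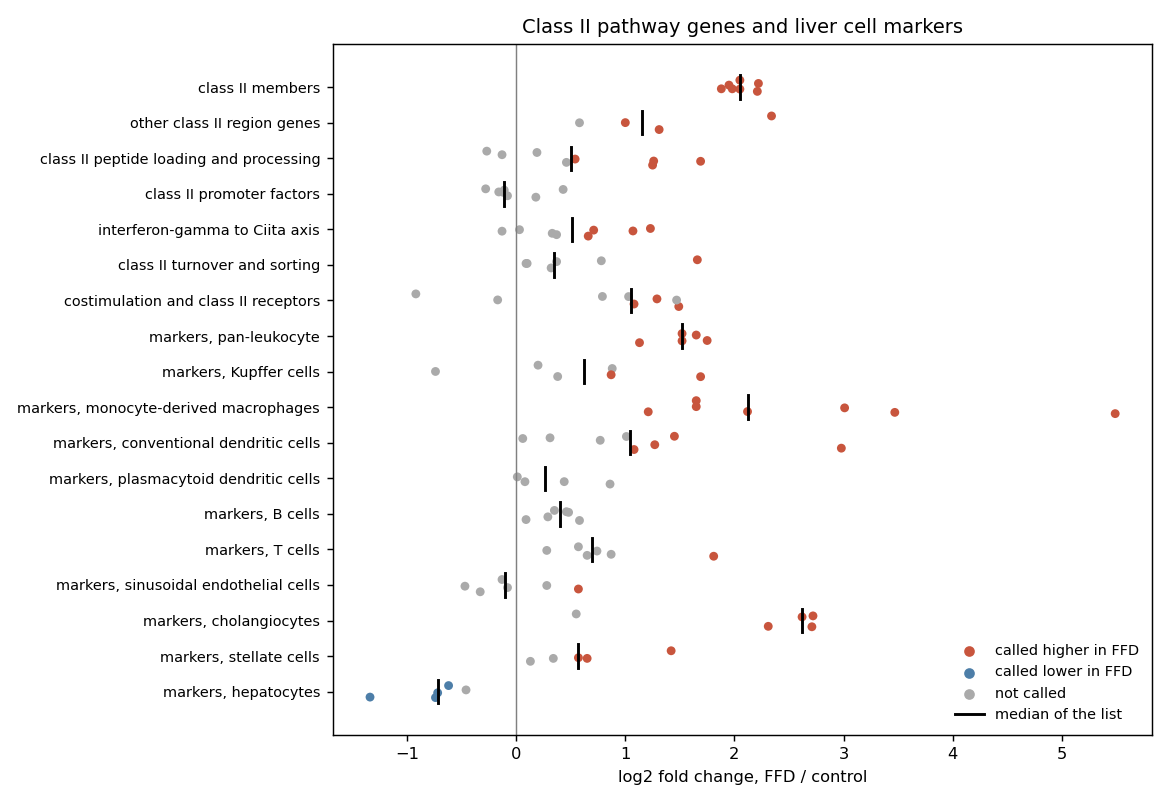
Log2 fold change between FFD and control of each tested gene (points) of the class II lists and of the liver cell marker lists, red for called higher, blue for called lower and grey for not called, with a black line at the median of each list. The 7 class II genes lie between 1.88 and 2.22, the promoter factors around -0.11, the B cell markers around 0.41 and the hepatocyte markers around -0.72.

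Marker genes of the cells that can carry class II moved unequally with the diet. All 7 markers of monocyte-derived macrophages were called higher, with a median log2 fold change of 2.12, and their summed level ran from 18.9 to 54.4 CPM over control and from 98.3 to 234 CPM over FFD libraries. Trem2 and Gpnmb, markers of lipid-associated macrophages, rose by 3.47 and 5.49. All 5 pan-leukocyte markers rose (median 1.52, summed 32.2 to 112 and 120 to 249 CPM). Of the Kupffer cell markers 2 of 6 rose, Cd5l by 1.69 and Folr2 by 0.87, while Clec4f (0.20), Vsig4 (0.38), Marco (0.88) and Timd4 (-0.74) were not called, and the summed level overlapped, at 114 to 491 and 179 to 816 CPM. Of the conventional dendritic cell markers 4 of 8 rose, Itgax by 2.98, Flt3 by 1.45, Ccr7 by 1.27 and Clec10a by 1.08. Xcr1 and Clec9a, of the cross-presenting subset, were at 0.77 and 0.31 and were not called, nor were Zbtb46 and Cd209a, and the summed level was 9.36 to 20.2 and 22.4 to 50.9 CPM. Above 1000 Xist counts edgeR called 4 monocyte-derived macrophage markers and 1 each of the pan-leukocyte, Kupffer cell and conventional dendritic cell markers. In the set below, the counts were 7, 5, 2 and 6, in the same order.

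Among the 6 B cell markers 0 were called by edgeR, DESeq2 or limma-voom and 0 had an unadjusted p under 0.05. Their median was 0.41, and their summed level overlapped at 2.54 to 10.8 and 2.69 to 12.5 CPM, with Pax5 and Fcer2a each at 0 counts in 1 control library. Of the 4 plasmacytoid dendritic cell markers 0 were called by any of the 3 tools, 0 had an unadjusted p under 0.05 in edgeR and DESeq2 and 1 in limma-voom, and Siglech, Ccr9 and Klk1 were at 0 counts in some libraries. Among the 6 T cell markers Cd5 was called (1.81), with a summed level of 1.47 to 9.55 and 2.57 to 9.21 CPM. Above 1000 Xist counts 0 of the 6 T cell markers were called by edgeR (median -0.23) and below it 5 (median 1.88), while the B cell markers had medians of -0.26 with 0 called and 1.19 with 1 called. Of the sinusoidal endothelial markers 1 of 6 rose, Stab2 by 0.57, with summed levels of 137 to 314 and 116 to 340 CPM. The cholangiocyte markers rose in 4 of 5 (median 2.62, summed 27.3 to 131 and 31.6 to 880 CPM), the stellate cell markers in 3 of 5 (median 0.57, summed 136 to 297 and 243 to 430 CPM), and 4 of 5 hepatocyte markers were called lower (median -0.72, summed 86402 to 129476 and 37370 to 90716 CPM). Above 1000 Xist counts edgeR called 0 of the cholangiocyte markers (median 1.10) and 1 of the stellate cell markers, and below it 4 and 3. With library totals 1 of the 5 hepatocyte markers was called lower. The part of any of these cells in the class II result was not tested.

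To set class II against these cells within each library, the H2-Ab1 count was divided by the summed count of each list. Against the monocyte-derived macrophage markers the mean log2 ratio was 0.45 ± 0.45 on the control diet and 0.23 ± 0.23 on the FFD (SD, n = 12 each), a difference of -0.23 (permutation test, adjusted p = 0.148 over 11 lists). Within the libraries above 1000 Xist counts this difference was -0.54 (exact permutation test, adjusted p = 0.0476), and it was 0.09 in those below. Against the pan-leukocyte markers H2-Ab1 gained 0.49, from -0.37 ± 0.31 to 0.12 ± 0.37 (permutation test, adjusted p = 0.00243), with a gain of 0.31 in the set above 1000 Xist counts that did not pass (exact permutation test, adjusted p = 0.238). It gained 0.96 on the conventional dendritic cell markers (adjusted permutation p = 4.71e-05) and 1.2 on the Kupffer cell markers (0.000467). Above 1000 Xist counts these were 0.58 and 0.69 and did not pass (exact permutation test, adjusted p = 0.0635 and 0.0536). The gains on the plasmacytoid dendritic cell, B cell and T cell markers were 2.10, 1.75 and 1.25 (adjusted permutation p = 2.2e-05, 2.2e-05 and 3.67e-05), with all 12 FFD libraries above the control median of each ratio. Against the cholangiocyte markers the difference was -0.02 (adjusted permutation p = 0.960), with an SD of 0.68 on the control diet and 0.87 on the FFD. The gains on the sinusoidal endothelial, stellate cell and hepatocyte markers were 2.16, 1.56 and 2.94 (adjusted permutation p = 2.2e-05 for each). A summed count follows the most abundant gene of its list, and that gene could change with the diet. Among the monocyte-derived macrophage markers it was Cd9 on the control diet (mean 23.2 CPM, Gpnmb 1.42). On the FFD it was Gpnmb (66.7 CPM, Cd9 53.4). Among the Kupffer cell markers it was Clec4f (127 CPM) on the control diet and Cd5l (259 CPM) on the FFD. Spp1 led the cholangiocyte markers (43.5 and 268 CPM) and Tcf4 the plasmacytoid dendritic cell markers (11.5 and 11.6 CPM) on both diets.

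**Figure D5:**
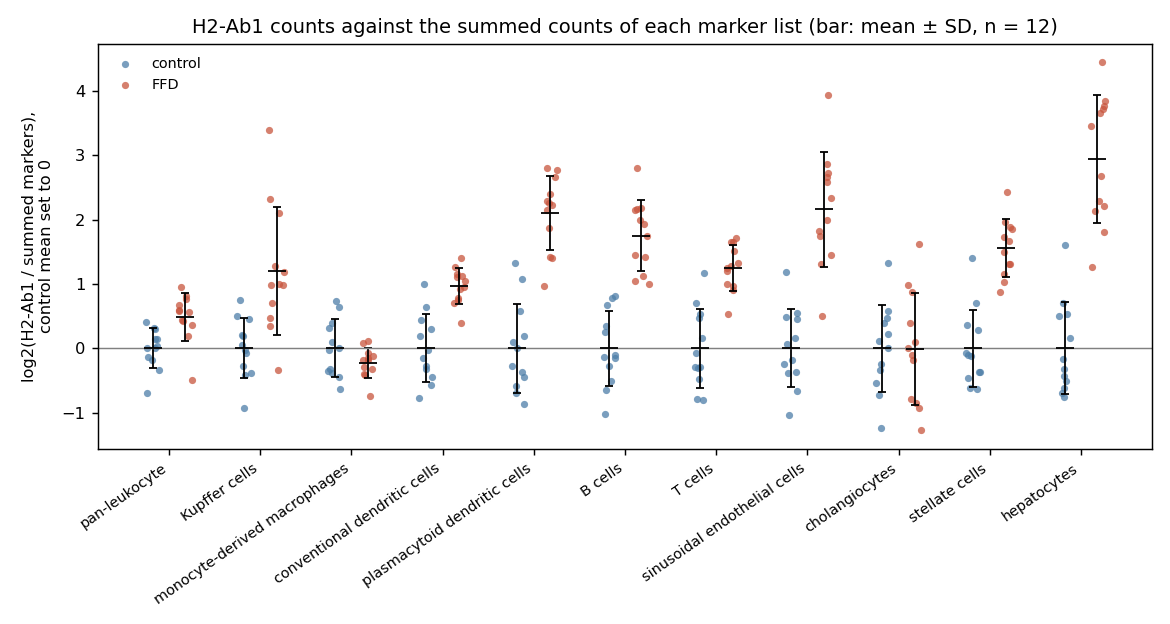
Log2 ratio of the H2-Ab1 count to the summed count of each marker list in each library, with the mean of the 12 control libraries set to 0 for each list, in blue for control and red for FFD. Bars give the mean and SD (n = 12). The FFD mean lies close to 0 for the monocyte-derived macrophage and cholangiocyte markers, at -0.23 and -0.02, with single libraries widely spread around it for the latter (SD 0.87), and at 1.75 for the B cell and 2.94 for the hepatocyte markers.

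The genes most like the class II genes were sought among 13910 other tested genes that averaged 10 or more counts a library. Likeness was Pearson's r between a gene and the mean of the 7 standardised class II genes on log2(CPM + 1), with the mean of each diet subtracted, over the 24 libraries. The 7 members themselves had r of 0.87 (Ciita) to 0.99 (H2-Aa and Cd74) with their own mean. The 10 nearest other genes were Ctss (0.94), Pak1 (0.93), Cyth4 (0.92), and Evl, Laptm5, Abr, Cd14, Tifab, Cd68 and Gltp (0.90 each), and all 10 were called higher on the FFD, with log2 fold changes of 1.32 to 1.94. Ctss is the cathepsin described above, Laptm5 a lysosomal membrane protein of leukocytes, Cd14 a coreceptor for lipopolysaccharide and Cd68 a lysosomal protein of macrophages. With the mean of each Xist set within a diet subtracted instead, Ctss, Pak1 and Cyth4 were again among the 10 nearest, at 0.85, 0.84 and 0.82, and Capg ranked first at 0.87. Laptm5 then ranked 28 and Gltp 50.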

How the data were processed

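The table deposited by the authors holds raw whole-number counts of Ensembl genes in 24 mouse liver libraries. The submitters' processing notes name bcl2fastq, STAR 2.7.3a and mm10, and the counting program for the mouse libraries is not given in the sources used here. Symbols, gene models and exonic lengths came from GENCODE M21 (51745 of 56205 IDs matched, the others holding 0.0723% of the counts), promoters from RefSeq. The diet of each library came from its title. The diets were compared by the quasi-likelihood F-test of edgeR 4.0.16 (R 4.3.3) after TMM scaling, with no covariate, and standard errors were derived from the F statistic. On simulated counts of 17733 genes for FFD against control, 77% of genes changed by 1 and 96% of genes changed by 2 on the log2 scale were recovered, with 0 false calls. Single values and ratios (pseudocount 0.5) used two-sided permutation tests with 100000 resamples in NumPy 2.4.6, exact for 6 against 6. Alternatives used DESeq2 1.42.0 and limma 3.58.1.

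The members, gene lists and tests were chosen with earlier results of these data known. The rule for named genes covered the members, the genes of the lists, Xist, Ddx3y and the 10 genes most like the members. A planned comparison of the proteins was not run, and the values of some listed genes are not reported here. No 2 libraries agreed within sampling noise (lowest chi-square per degree of freedom 10.1 on the FFD and 18.4 on the control diet). Nothing in the labels says that same-numbered libraries of the diets are related. The deviations of same-numbered libraries from the mean of their diet correlated at 0.141 to 0.516 for 11 numbers and at -0.0859 for replicate 9. Same-numbered libraries also share their Xist set, whose mean was not subtracted, so these correlations cannot decide on pairing. Pairs were taken only where every correlation was over 0.1, so the numbers were not taken as pairs. P-values measure the spread between these libraries, and counting limits cover counting error only.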

Additional observations from a re-analysis of the deposited data

Results flagged for a closer look

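A test of the difference between the Xist sets (diet by Xist set interaction in edgeR, adjusted p at most 0.01) singled out 23 of 111 listed genes tested, against 4.06% of all tested genes. All values are log2 differences, Xist above minus below 1000 counts, in the FFD effect. Among the class II genes they were -2.07 for H2-Aa, -2.01 for Cd74, -1.97 for H2-Ab1, -1.97 for H2-Eb1, -1.95 for Ciita, -1.82 for H2-DMb1, -1.62 for H2-DMa and -1.99 for H2-DMb2. In antigen processing and interferon-gamma signalling they were -1.79 for Ctss, -1.0 for Lgmn, -1.17 for Ifi30, -1.14 for Ifngr1 and -1.42 for Irf8. Among the cell markers they were -1.52 for Ptprc, -1.52 for Laptm5, -1.47 for Coro1a, -1.57 for Cd52, -1.77 for Tyrobp, -1.42 for Cd5l, -3.62 for Cd8a, -1.72 for Lck, -3.06 for Epcam and 1.15 for Serpina1c. The labels do not state what separates the sets, whose Xist and Ddx3y counts are those of female and male mice. The sets also differ in replicate number, and no cause of the differences was tested. Groups of 12 libraries were too large for the test of single outlying samples.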

How the results depend on the processing

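Counts set the limits: Ciita had 0 to 102 counts per control library, and the labels name no sex, litter or batch of a library. The 7 class II genes were called higher with DESeq2, limma-voom, library totals, DESeq2's size factors, 2 other filters, the Xist set as a term, the replicate number as a block, and without any 1 library, with log2 fold changes of 1.80 to 2.53. A filter of 10 counts in every library left Ciita out. Above 1000 Xist counts 4 of the 7 were called, and H2-Ab1 (1.09), H2-Eb1 (1.23) and Cd74 (1.07) were not.

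Over all genes, 2372 were called higher and 894 lower. Library totals gave 3827 and 226, the filter of 10 counts in every library gave 1226 higher among fewer genes, and an adjusted p of 0.05 with no fold threshold gave 3709 and 3388. A log2 threshold of 1 gave 216 lower. The Xist sets each had 6 libraries per diet. The set above 1000 Xist counts gave 520 higher and 158 lower, and the set below gave 2572 higher and 1431 lower.

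The log2 gain of H2-Aa on H2-Ab1 was 0.08 above and 0.24 below 1000 Xist counts and that of H2-Eb1 0.16 and 0.14, with no adjusted p under 0.05. Exchanging diets within replicate numbers, as a replicate block, gave 0.16 and 0.15 with adjusted p = 0.122 and 0.114 (permutation test). Without 1 library they ranged from 0.12 to 0.18 and from 0.13 to 0.17. Above 1000 Xist counts the H2-Ab1 ratio to pan-leukocyte (0.31), Kupffer (0.69) and dendritic cell markers (0.58) lost its call, and that to monocyte-derived macrophage markers (-0.54) gained one. In the edgeR fit the replicate block gave 2063 genes higher and 844 lower, called all 7 class II genes, and took the other class II region genes from 3 to 1 called, the dendritic cell markers from 4 to 2 and the sinusoidal endothelial markers from 1 to 0. It changed no other ratio's call. The Ciita interaction ranged from -2.26 to -1.73 without 1 library. The cause of these differences was not tested.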
